A study of Mus musculus with 12 samples.

Results

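The small RNA content of the CA1 subfield of the hippocampus was described in 6 Control libraries out of the 12 libraries of the series. These were all libraries that the labels call Control, and the libraries of the Kat2a cKO group were not used. Each Control library came from dissected CA1 of C57BL/6J mice aged 3 to 5 months that carried floxed Kat2a alleles (Kat2a fl/fl) and no Cre recombinase. The labels do not say whether a library holds 1 mouse or several, and a p-value below weighs a difference against its spread over these 6 libraries. The tissue was not sorted, so neurons, glia, vessels and blood all contributed RNA. Reads were counted by the authors in a table of miRNAs, with 495 named miRNAs, and in a table of other non-coding RNAs, here called misc RNAs, with 4645 rows of which 2468 had reads.

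CA1 is the output subfield of the hippocampus and is dominated by pyramidal neurons. A miRNA is cut from a hairpin precursor that yields a 5′ and a 3′ arm. As a rule 1 arm, the guide, is loaded into an Argonaute protein and pairs with target mRNAs through its seed, bases 2 to 8, while the other arm, the star or passenger, is degraded. miRNAs with the same seed form a family that can recognise overlapping targets. C/D box small nucleolar RNAs (snoRNAs) guide methylation of ribosomal RNA, H/ACA box snoRNAs guide its pseudouridylation, and tRNAs carry amino acids to the ribosome and can be cut into stable fragments.

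The 10 most abundant miRNAs are printed below 5′ to 3′ from RefSeq (GRCm38.p6), with the seed in capitals, because together they held most of the miRNA reads. All 10 seeds differ from each other.
miR-127: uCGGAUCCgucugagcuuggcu
miR-181a: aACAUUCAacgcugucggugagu
miR-26a: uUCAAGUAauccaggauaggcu
miR-22: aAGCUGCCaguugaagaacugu
miR-434-3p: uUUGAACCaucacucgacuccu
miR-9: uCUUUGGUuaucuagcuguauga
miR-191: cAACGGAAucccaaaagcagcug
miR-128: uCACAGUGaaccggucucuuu
let-7f: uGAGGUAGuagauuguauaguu
miR-92b: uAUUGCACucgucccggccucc

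The libraries held 2876910 to 8137046 counts in the miRNA table and 1779081 to 5086458 in the misc RNA table, with the lowest of both in Control 2. Levels are given as CPM, the counts of a row scaled to a common total for the table it comes from. miRNAs took 61.1% ± 3.72 (SD, n = 6) of the counts of both tables, from 54.2% in Control 1 to 65.6% in Control 6. Control 1 and Control 2 stood apart from the other libraries in miRNA profile, as described with the spread between libraries, and means of the leading miRNAs, seed families, clusters and marker lists that differed by over 1.3 times without them are also given over Control 3 to 6. The listed miRNAs had a lowest mean of 10 counts, so rarer miRNAs are not analysed here. The neuronal miR-124 has no row although its star does, so the rankings below cannot place it. All 495 had reads in every library.

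A few miRNAs made up most of the pool. The 3 most abundant held 36.3% ± 1.76 of the counts, the 10 most abundant 59.2% ± 1.89 and the 20 most abundant 72.1% ± 1.57 (SD, n = 6 each). Between 5 and 7 miRNAs reached 50% of a library's counts, 48 to 54 reached 90% and 177 to 183 reached 99%. By mean level, 19 miRNAs lay at 10000 CPM or more, 56 between 1000 and 10000 CPM, 128 between 100 and 1000 CPM and 292 under 100 CPM. The mean CPM of the first was 84231 times that of the last.

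miR-127, from the imprinted Dlk1-Dio3 region of chromosome 12, led the ranking. Its level was 171468, 166146, 134613, 135155, 143150 and 110616 CPM in Control 1 to 6, a mean of 143525 ± 22473 CPM (SD, n = 6). It was first in 5 libraries, highest in Control 1 and lowest in Control 6, where miR-181a was above it. miR-181a, abundant in neurons and lymphocytes, had 117411, 92566, 121741, 128629, 116281 and 122419 CPM (mean 116508 ± 12517). Control 2 was its lowest library, and the other libraries lay close together. miR-26a, a brain-abundant miRNA, had 101321, 94632, 108777, 94348, 115046 and 106227 CPM (mean 103392 ± 8193), with the smallest relative spread of these first 3. miR-22, encoded on chromosome 11, took rank 4 in every library with 61792, 48151, 68419, 61441, 67691 and 60425 CPM (mean 61320 ± 7286).

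The order below these was less fixed. Of the 19 pairs of neighbours in the top 20, only 2 differed by more than the SD of their log2 difference over libraries, and the same 2 kept their order in all 6 libraries: miR-26a above miR-22 (log2 difference 0.76 ± 0.13, SD) and miR-22 above miR-434-3p (0.79 ± 0.44). The other 17 neighbours were not separated by this spread. For miR-127 and miR-181a the difference was 0.29 ± 0.36, and for miR-181a and miR-26a it was 0.17 ± 0.17, each in this order in 5 of 6 libraries. In all, 14 of the 20 stayed among the top 20 of every library, and 7 of the top 10 among every top 10.

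Positions 5 to 10 held a mix of steady and variable miRNAs. miR-434-3p, another Dlk1-Dio3 member, averaged 36269 ± 8838 CPM and ranged from 24303 in Control 5 to 50147 in Control 1. miR-9, a regulator of neural progenitor and neuronal differentiation, averaged 32260 ± 9148 CPM, with its lowest value of 20337 in Control 1 and its highest of 45801 in Control 6. miR-191, which shares a transcript with miR-425, averaged 27608 ± 4578 CPM. miR-128, a brain-enriched miRNA that limits neuronal excitability, was among the steadiest at 24131, 22656, 26652, 23239, 26874 and 26208 CPM (mean 24960 ± 1846). let-7f averaged 24419 ± 7216 CPM and was lowest in Control 1 (13675) and Control 2 (18139). miR-92b averaged 21851 ± 11223 CPM and went the other way, with 25890 in Control 1, 43047 in Control 2 and 13700 to 16635 in the others. Its mean thus rested on those libraries and was 15542 CPM over Control 3 to 6.

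The second 10 were miR-125b-5p, let-7c, miR-30a, miR-99b, miR-30d, miR-27b, miR-411, miR-29a, miR-16 and miR-125a-5p. Their means ran from 19835 CPM for miR-125b-5p to 9766 CPM for miR-125a-5p. miR-99b had the widest spread of the 20, from 6802 CPM in Control 6 to 35171 CPM in Control 2, and its rank moved between 8 and 31. Over Control 3 to 6 the mean of miR-99b was 9077 CPM, that of miR-125b-5p 15041 CPM and that of miR-125a-5p 7675 CPM. let-7c, at 15872 ± 1471 CPM, varied little. miR-30a was highest in Control 4 (19769) and Control 6 (22286) and lowest in Control 1 (8759).

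**Figure D1:**
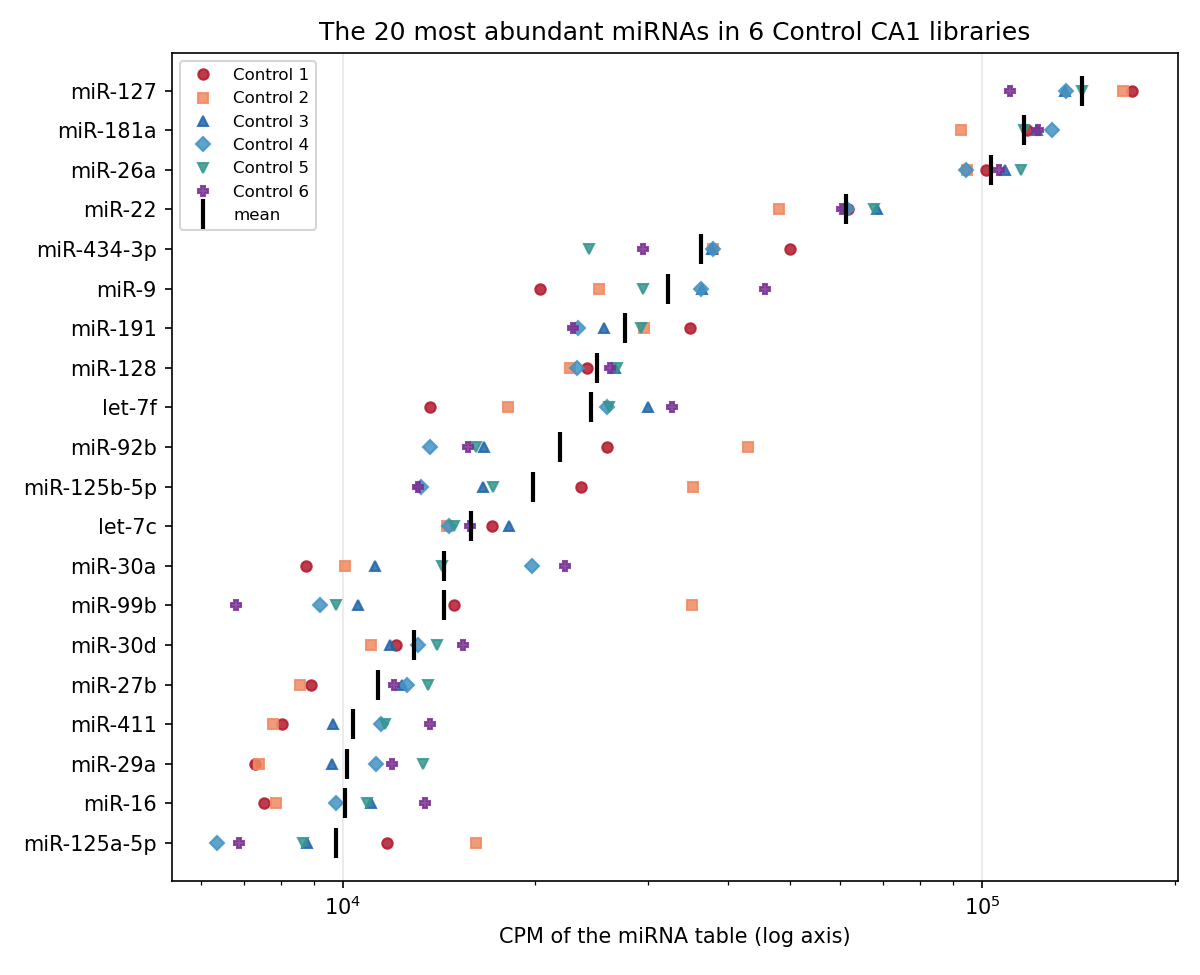
Level of the 20 most abundant miRNAs in each Control library, as CPM of the miRNA table on a log axis, with the mean as a black bar. miR-127, miR-181a and miR-26a have means of 143525, 116508 and 103392 CPM with overlapping libraries, and Control 1 and Control 2 are often at one end, as for miR-92b, miR-99b and let-7f.

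Of the 495 names, 343 could be matched to a RefSeq mature sequence, and they held 91.5% of the counts. They fell into 279 seeds, of which 38 had several members. Family shares, members and ranks below cover matched names only. The 10 most abundant seed families held 67.7% of the counts, and 5 of these 10 consisted of a single miRNA. The miR-127 seed, CGGAUCC, was the largest with 14.4% ± 2.25 (SD, n = 6), from 11.1% to 17.1%. The miR-181 seed, ACAUUCA, held 13.1% ± 1.44 and the miR-26 seed, UCAAGUA, 10.6% ± 0.85. In the miR-26 family miR-26a made up 97.4% and miR-26b, at 2809 ± 675 CPM, the rest.

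The miR-181 family had 4 members, which share the seed and differ in the middle and the 3′ end.
miR-181a: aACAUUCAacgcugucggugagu
miR-181b: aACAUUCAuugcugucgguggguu
miR-181c: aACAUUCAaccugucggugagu
miR-181d: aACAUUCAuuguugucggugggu
miR-181a made up 88.8% of the family. miR-181c followed with 8020 ± 1279 CPM, miR-181b with 5827 ± 986 CPM and miR-181d with 905 ± 184 CPM.

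The let-7 family, known for holding cells in a differentiated state, was spread over 9 members with the seed GAGGUAG. The 4 most abundant and the least abundant differ from each other at few bases, so that reads of one may be counted for another, and how such reads were counted is not given in the sources used here.
let-7f: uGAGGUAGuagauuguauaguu
let-7c: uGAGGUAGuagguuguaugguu
let-7a: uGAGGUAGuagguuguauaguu
let-7i: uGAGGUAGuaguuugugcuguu
miR-98: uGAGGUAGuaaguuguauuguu
The family held 7.53% ± 1.26 of the counts, and its leading member, let-7f, only 31.8% of the family. let-7c (15872 ± 1471 CPM), let-7a (9271 ± 1051), let-7i (8783 ± 2582) and let-7g (6713 ± 1535) followed, and miR-98 was last with 937 ± 271 CPM. Members did not vary alike: let-7f, let-7i, let-7g and miR-98 were each lower in Control 1 and Control 2 than in every other library, while let-7b was higher in both (4151 and 3873 CPM) than in the others (2735 to 3480 CPM).

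Of the remaining large families, those of miR-22 (AGCUGCC, 6.13% ± 0.73), miR-434-3p (UUGAACC, 3.63% ± 0.88), miR-9 (CUUUGGU, 3.23% ± 0.91) and miR-191 (AACGGAA, 2.76% ± 0.46) had 1 member each. Among matched names the miR-30 seed, GUAAACA, held 3.33% ± 0.8 in miR-30a (42.1% of these reads), miR-30e, miR-30c and miR-384-5p. miR-30d (12926 ± 1594 CPM) and miR-30b (2005 ± 143 CPM) had no matched sequence and are not in this share. Counted by name, with miR-30b and miR-30d but without miR-384-5p, miR-30 took 4.76% ± 0.93, above the 3.63% of the miR-434-3p family. The miR-125 seed, CCCUGAG, held 2.98% ± 1.21 and was shared by miR-125b-5p (66.2% of the family), miR-125a-5p and miR-351, the last at 229 ± 24.3 CPM. It ranged from 1.99% to 5.17%, with its highest value in Control 2, and averaged 2.29% over Control 3 to 6.

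**Figure D2:**
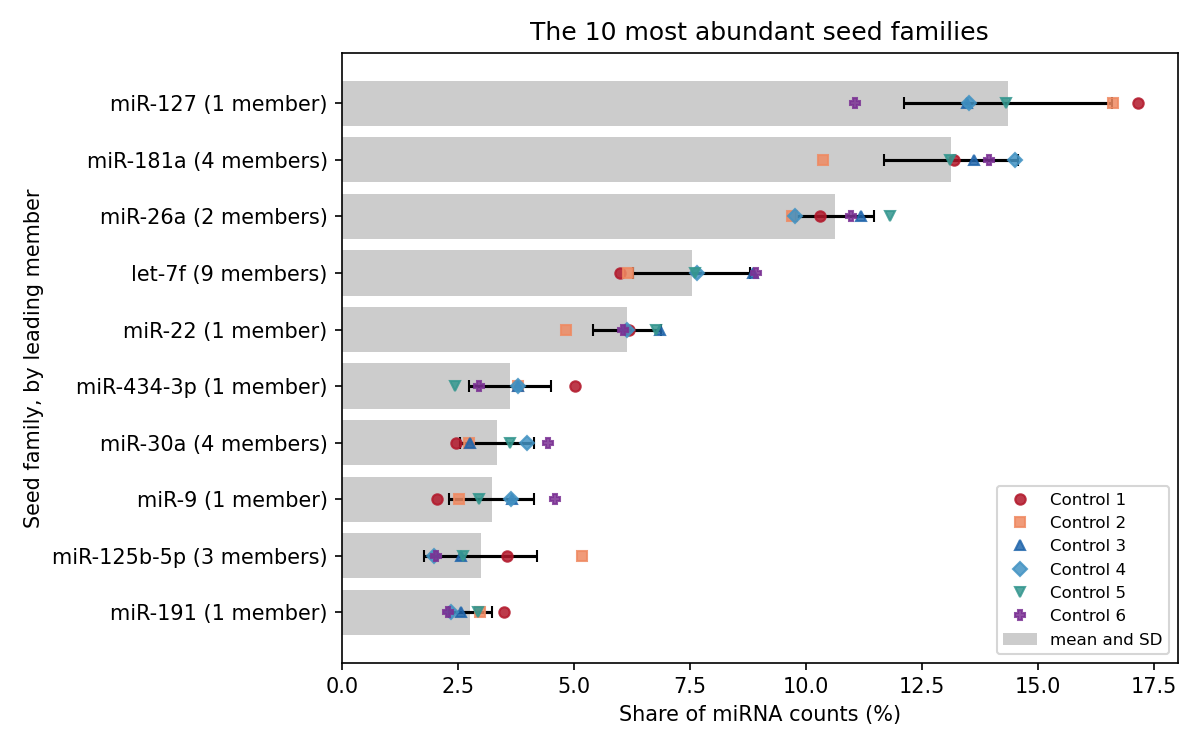
Share of the miRNA counts in the 10 most abundant seed families, each named by its leading member. Bars are means, error bars the SD and points the 6 libraries. Only names matched to a sequence are included, so miR-30b and miR-30d are not in the miR-30a family. The miR-127, miR-181 and miR-26 families hold 14.4%, 13.1% and 10.6%, and the let-7 family is the largest with many members.

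The matched miRNAs began with U in 37.9% of names but 65.2% ± 1.24 of reads, and with G in 9.62% of names and 0.73% ± 0.105 of reads (SD, n = 6). Among all 1679 mature names of the RefSeq table, 40.9% began with U and 12.8% with G. A 5′ U is the base that Argonaute proteins are known to favour. Sequences of 22 bases took 66.4% ± 2.2 of reads and those of 23 bases 22.9% ± 1.66.

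Arm use was compared within hairpins. For 151 hairpins the table lists both arms, 107 of them as a plain name and the same name with a star, and 44 as 5p and 3p. The star is an older naming in which it marks the arm thought to be the passenger. edgeR's quasi-likelihood test with the library as a block, adjusted by Benjamini-Hochberg over the 151 hairpins, called a difference in 91.4% of them. Among the 107 starred hairpins the plain arm was higher in 89 (83.2%), the starred arm was higher in 12 (11.2%) and 6 were not called, so that 94.4% were called in either direction. The median ratio of plain to starred arm was 19.8. It was over 10 in 61 hairpins and over 100 in 31, and within 2-fold of equality in 13. All starred arms together took only 1.87% ± 0.22 of miRNA counts (SD, n = 6), from 1.59% in Control 1 to 2.13% in Control 4. Of 232 plain names, 126 have no starred row, 46 of them with a mean of 1000 counts or more, and their partner arms are not analysed here. The ratios above thus cover only hairpins whose star is listed. Hairpins with a star too rare to be listed could be more one-sided.

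The hairpins are shown for the most abundant miRNA, for a one-sided precursor and for a pair in which the starred arm led. Capitals mark the 5′ and 3′ arms that RefSeq annotates.
Mir127: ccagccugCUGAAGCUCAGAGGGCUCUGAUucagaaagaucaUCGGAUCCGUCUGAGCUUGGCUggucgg
Mir22: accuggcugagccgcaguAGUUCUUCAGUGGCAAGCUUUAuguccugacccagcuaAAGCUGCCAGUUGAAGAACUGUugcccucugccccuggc
Mir136: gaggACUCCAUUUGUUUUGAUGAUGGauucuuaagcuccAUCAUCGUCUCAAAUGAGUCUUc
Mir376b: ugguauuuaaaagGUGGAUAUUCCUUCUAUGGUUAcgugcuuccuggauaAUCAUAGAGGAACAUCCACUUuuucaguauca
In Mir127 and Mir22 the 3′ arm carried nearly all reads. The star arm of miR-22 had 31.5, 36.5, 37.7, 35.9, 38.9 and 45.4 CPM in Control 1 to 6, a log2 ratio of 10.67 ± 0.21 (SE, edgeR adjusted p = 7.9e-16). For miR-127 the star arm had 186, 164, 211, 413, 222 and 333 CPM, a log2 ratio of 9.20 ± 0.3.

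Among starred hairpins with both arms listed, the 10 most one-sided were those of miR-92b, miR-410, miR-143, miR-204, miR-186, miR-22, miR-381, miR-486, miR-100 and miR-191. miR-92b led with a log2 ratio of 12.59 ± 0.23 (SE, adjusted p = 5.0e-16), its plain arm at 21851 ± 11223 CPM and its star at 3.64 ± 2.26 CPM (SD, n = 6). The plain arm and the star of miR-92b were both highest in Control 2, and their ratio stayed between 5043 and 7580. The tenth, miR-191, had a log2 ratio of 9.64 ± 0.21. In each of the 10 the plain arm was higher in 6 of 6 libraries.

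The starred arm was higher in miR-136, miR-708, miR-376b, miR-140, miR-329, miR-3071, miR-376a, miR-431, miR-3068, miR-1981, miR-377 and miR-700. Of these, miR-136, miR-376a, miR-376b, miR-329, miR-377, miR-431 and miR-3071 belong to the Dlk1-Dio3 region. That region holds 21 of the 107 starred hairpins, of which the starred arm was higher in 7 and the plain arm in 13, against 5 and 76 of the 86 hairpins elsewhere, and this difference was not tested. miR-136 was by far the most abundant. Its starred 3′ arm had 3669, 4616, 5597, 8183, 7706 and 7888 CPM in Control 1 to 6 and its plain 5′ arm 903, 1211, 1262, 2436, 2675 and 2529 CPM. The starred arm was thus higher in every library, by 2.88- to 4.44-fold, with a log2 ratio of plain to starred arm of -1.84 ± 0.15 (SE, adjusted p = 7.2e-09).

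In miR-376b the 5′ arm, named with a star, had 330, 389, 558, 601, 642 and 691 CPM against 65 to 95.1 CPM for the plain arm (log2 ratio -2.64 ± 0.16). miR-708* stood at 557 ± 174 CPM against 206 ± 51 CPM. miR-140, a miRNA best known from cartilage, had 295 ± 64.6 CPM in its star against 42.9 ± 12.7 CPM. Both were called with the starred arm higher in 6 of 6 libraries. The largest ratio was that of miR-3071, whose star was 85.5 times its plain arm (233 ± 53 against 2.8 ± 1.32 CPM), but the Mir3071 gene overlaps Mir136 in RefSeq, and whether strand was used in counting is not given in the sources used here, so its reads may belong to either gene. The smallest was that of miR-431 (log2 ratio -0.45 ± 0.16, adjusted p = 0.015), whose call was lost without Control 4 (adjusted p = 0.079). miR-329 was the exception among the 12 in that its starred arm was higher in only 5 of 6 libraries, and its call (log2 ratio -1.01, edgeR adjusted p = 0.0012) was lost by the exact sign-flip permutation test (adjusted p = 0.068).

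Some hairpins delivered both arms in near equal amounts. Of the 44 named as 5p and 3p, the 5p arm was higher in 18, the 3p arm in 19, and 7 were not called, so that 84.1% were called in either direction. The most abundant of the 7 was miR-151, with 5377 ± 454 CPM in the 5p and 5083 ± 748 CPM in the 3p arm (log2 ratio 0.09 ± 0.14, adjusted p = 0.56). miR-212, induced by neuronal activity together with miR-132, had 624 ± 61.9 and 592 ± 125 CPM (0.10 ± 0.17, adjusted p = 0.59). A p that misses the threshold does not show that both arms were equal. In contrast, miR-434 gave 36269 CPM of its 3p and 2191 ± 537 CPM of its 5p arm, and miR-126, the endothelial miRNA, 8814 ± 2438 CPM of its 5p and 1329 ± 223 CPM of its 3p arm.

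Among starred hairpins, the 5 most abundant with a ratio near equality were miR-872, miR-379, miR-873, miR-1298 and miR-376a. miR-1298 had 112 ± 23.6 CPM in the plain and 116 ± 20.7 CPM in the starred arm (log2 ratio -0.06 ± 0.16, adjusted p = 0.74). miR-872 passed the test (0.49 ± 0.19, adjusted p = 0.025) with the plain arm higher in only 4 of 6 libraries, and its call was lost without Control 3, 4, 5 or 6. Arm ratios were stable for some hairpins and not for others. The median SD of the log2 ratio over libraries was 0.48, and 71 of the 151 hairpins had an SD over 0.5, up to a largest SD of 1.19.

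**Figure D3:**
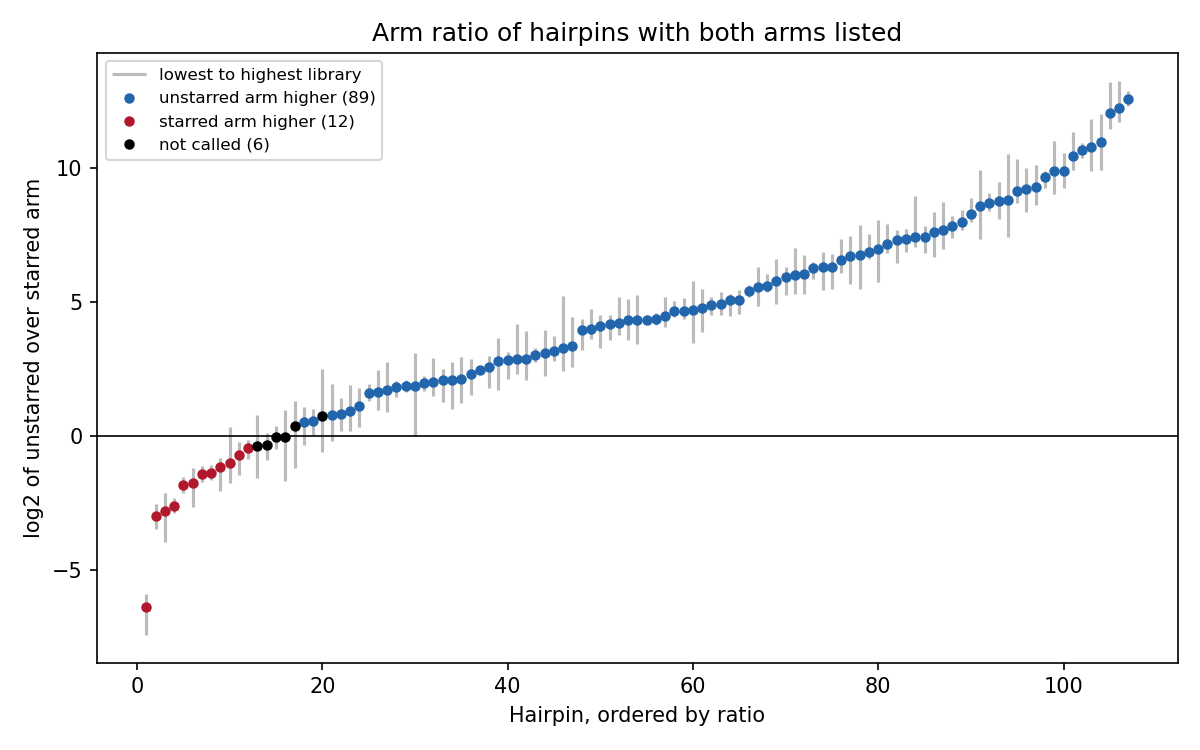
Log2 ratio of the plain to the starred arm for the 107 hairpins that list both, ordered by ratio. Points are the fitted ratio, coloured by the call at an adjusted p of 0.05, and grey lines run from the lowest to the highest library. The 12 hairpins with the starred arm higher lie at the left, down to miR-3071.

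Hairpins that lie close together in the genome are often cut from 1 transcript. Listed hairpins with a single RefSeq gene were joined where neighbours lay within 10000 bases, which gave 38 clusters with 131 of 292 hairpins and 40.8% ± 3.55 of the miRNA counts (SD, n = 6). Within a cluster the levels were far from equal. The highest hairpin was a median of 9.08 times the lowest, and over 10 times in 18 of the 38. Mature names made by several genes, such as miR-24, miR-29b and miR-30c, could not be assigned to a gene, so those precursors are represented by their star arm alone and the ratios of their clusters can be too large. Such names are also missing from the shares and ranks of clusters. Among them are miR-181a (116508 CPM) and miR-181b (5827 CPM), each placed on chromosomes 1 and 2, which are in no cluster here.

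The Dlk1-Dio3 region on chromosome 12, an imprinted region whose miRNAs are made from the maternal allele and are abundant in brain, formed the largest group. Its 80 listed names from 48 hairpins held 20.2% to 27.0% of the counts, with a mean of 23.4% ± 2.35 (SD, n = 6), and miR-127 alone was 61.2% ± 4.64 of that. Without miR-127 the region held 9.02% ± 0.88. The 6 most abundant names, miR-127, miR-434-3p, miR-411, miR-410, miR-136* and miR-541, made up 90.1% of it, while 41 of the 80 lay under 100 CPM. The 10000-base rule put most of the region in 2 clusters. The cluster of Mir337 to Mir136, with 8 hairpins, held 19.2% ± 2.65 of the counts and spanned 29684-fold, from the Mir127 hairpin at 143779 CPM to Mir540 at 4.84 CPM. The cluster of Mir379 to Mir3072, with 35 hairpins, held 4.03% ± 0.49 and was led by miR-411 at 10376 ± 2310 CPM, 25.6% of the cluster. Its lowest hairpin was Mir494 at 3.56 CPM.

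The other leading clusters of names with a single gene were small. Mir191 and Mir425 on chromosome 9 held 2.83% ± 0.46, with miR-191 97.5% of it and miR-425 at 639 ± 82 CPM. Mir99b, Mirlet7e and Mir125a on chromosome 17 held 2.68% ± 1.4 (1.94% over Control 3 to 6), and its members moved unequally: miR-99b and miR-125a-5p were highest in Control 2 (35171 and 16166 CPM), while let-7e from the same cluster was among the steadiest miRNAs of all, with 2658, 2458, 2801, 2307, 2479 and 2507 CPM. Mir486 and Mir3107 on chromosome 8 held 1.65% ± 0.98 as counted, but the genes overlap and miR-486 and miR-3107 had identical counts in every library, so their reads cannot be told apart. With these counts taken once the pair held 0.825% ± 0.49 (0.535% over Control 3 to 6), which moved it from rank 5 to rank 11 among the clusters. Mir30b and Mir30d on chromosome 15 held 1.5% ± 0.17, with miR-30d 6.45 times miR-30b. Mir23b, Mir27b, Mir3074-1 and Mir24-1 on chromosome 13 held 1.24% ± 0.2, of which miR-27b made up 91.4%, and Mir30c-1 with Mir30e on chromosome 4 held 1.04% ± 0.36. Mir29a with Mir29b-1 on chromosome 6 held 1.02% ± 0.25 and is the eighth once the miR-486 counts are taken once.

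Neuronal marker miRNAs were the most abundant list, and lists of glia, vessels and blood were also detected. Names were matched exactly as spelled, so a name listed only with another arm suffix, such as miR-34b-5p, is not in the sums. Some lists hold alternative spellings, such as miR-338 beside miR-338-3p, so the numbers of listed names are not numbers of detected miRNAs. Of the 10 neuronal names 7 were listed, with a summed level of 72077 ± 13056 CPM (54261 to 89904), led by miR-9 and miR-128. miR-124, miR-129-3p and miR-212 had no row under these names. The sum thus lacks miR-124, whose star was listed at 49.8 CPM, and the reason is not given in the sources used here. It also leaves out miR-212-5p, miR-212-3p, miR-129-2-3p and miR-129-1-3p, at 624, 592, 727 and 103 CPM. Oligodendrocyte miRNAs, 4 of 6 listed, summed to 3532 ± 865 CPM (2425 to 4398), with miR-338-3p at 2893 ± 861 CPM and miR-219-3p at 467 ± 55 CPM. All 8 microglia and leukocyte names were listed and summed to 5400 ± 763 CPM (4150 to 6312), led by miR-21 and miR-146b. miR-150, miR-146a and miR-142-5p followed at 1310, 418 and 121 CPM. The lowest were miR-142-3p (7.04 ± 2.2 CPM), miR-155 (3.82 ± 0.71) and miR-223, a myeloid miRNA (2.4 ± 1.24, or 1.8 over Control 3 to 6). The 6 of 8 vascular names summed to 18597 ± 4123 CPM (13106 to 22631), led by miR-126-5p and miR-143.

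Of the red blood cell names 2 of 3 were listed, and miR-144 only as miR-144* (15.9 CPM), which is not counted. The listed 2 summed to 3895 to 16991 CPM, and this list varied most. Its mean was 8381 ± 4891 CPM over the 6 libraries and 5494 CPM over Control 3 to 6. It was highest in Control 2 and Control 1 (11315 CPM), which rested on miR-486 (16853 and 11213 CPM, against 3759 to 6104 CPM in the others), while miR-451, cut without Dicer in red cell precursors, was at 138 and 103 CPM there and at 136 to 173 CPM in the others. Choroid plexus and epithelial names, 9 of 11 listed, summed to 4944 ± 1177 CPM, almost all miR-204 (3953 ± 1573, or 2955 over Control 3 to 6) and miR-34c (721 ± 479, or 966), with miR-141 at 2.42 ± 0.81 CPM. The heart and muscle names, which mark tissues not sampled, summed to 122 ± 12.5 CPM with 3 of 6 listed, led by miR-133a (76 ± 9.06) and miR-133b (44 ± 4.37). The 1 liver name had no row. In such bulk samples fewer cells of a type and less RNA per cell cannot be told apart.

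The misc RNA table was dominated by tRNAs and C/D box snoRNAs. As counted, tRNA rows held 38.4%, 28.3%, 43.8%, 48.4%, 50.1% and 42.0% of counts in Control 1 to 6, a mean of 41.8% ± 7.87 (SD, n = 6), and C/D box snoRNAs 30.3% ± 2.24. However, 271 rows with over 200 reads formed 69 sets with the same counts in every library, and 215 of these rows were tRNAs, whose genes have many identical copies. With rows of equal counts kept once at any number of reads, which left out 1048 rows, the order turned. C/D box snoRNAs then held 40.9% ± 3.08 and tRNAs 23.1% ± 6.05, with 20.0%, 13.2%, 24.2%, 28.1%, 30.0% and 23.4%, and the snoRNAs were above the tRNAs in 6 of 6 libraries. Leaving out repeats only in the 69 sets gave 40.8% and 23.1%. Rows with nearly but not exactly equal counts were all kept, so shared reads may still be counted more than once. Control 2 had the lowest tRNA share with every row counted and with equal rows once.

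Among tRNAs, glycine led, and glycine, valine and glutamate together held 86.6% of tRNA counts (89.4% with identical rows once). The ranking below is with identical rows once. Distinct rows were all kept, 16 of them for tRNA-Gly, with a mean of 51834 counts in the leading row and 367127 in all. How far such rows share reads was not tested. tRNA-Gly held 40.9%, 54.9%, 50.9%, 59.9%, 72.2% and 69.2% of tRNA counts in Control 1 to 6 (mean 58.0% ± 11.7, SD, n = 6). tRNA-Val held 33.6%, 20.2%, 27.0%, 20.7%, 12.4% and 13.9% (mean 21.3% ± 7.98). The ratio of tRNA-Gly to tRNA-Val thus ran from 1.22 in Control 1 to 5.84 in Control 5 and was highest in Control 5 and Control 6. tRNA-Glu held 10.1% ± 2.56 and was below tRNA-Val in every library. With every row counted their order turned, to 17.2% ± 3.84 for tRNA-Glu, whose leading row had 9 copies, and 15.4% ± 5.55 for tRNA-Val, with tRNA-Glu higher in 3 of 6 libraries. tRNA-Lys (3.05% ± 0.44), tRNA-Gln (2.02% ± 0.66), tRNA-Asp (0.97% ± 0.3), tRNA-Asn (0.905% ± 0.17), tRNA-Cys (0.88% ± 0.14), tRNA-His (0.72% ± 0.27) and tRNA-Leu (0.68% ± 0.26) completed the first 10 of 21 labels. The rows give the amino acid and not the part of the tRNA that was read, so fragments and whole tRNAs cannot be told apart.

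The 5 leading C/D box snoRNAs took 77.3% of their class, and 4 of them are printed here from GENCODE M21 (GRCm38) with the C box motif TGATGA and the D box motif CTGA in capitals. By that annotation these 4 lie within Rpl3, Snhg12, Nop56 and 2410006H16Rik, in this order, and the entry of Snord43 is typed there as a miRNA.
Snord43: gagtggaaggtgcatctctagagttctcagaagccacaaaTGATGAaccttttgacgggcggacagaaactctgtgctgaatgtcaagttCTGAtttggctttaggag
Snord99: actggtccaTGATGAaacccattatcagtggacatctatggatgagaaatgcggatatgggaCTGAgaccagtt
Snord110: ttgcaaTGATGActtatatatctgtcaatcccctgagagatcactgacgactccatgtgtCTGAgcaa
Snord49a: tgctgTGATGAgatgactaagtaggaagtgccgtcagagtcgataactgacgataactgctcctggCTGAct
All 4 carry both motifs in these letters. Counts were not divided by length, and the printed entries span 68 to 108 bases.

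Snord43 was first in every library, with 59856, 74741, 93671, 102704, 111491 and 107246 CPM of the misc RNA table, a mean of 91618 ± 20298 CPM (SD, n = 6). It was lowest in Control 1 and Control 2. Snord99 was second in every library at 56171 ± 7045 CPM. Snord110, of rank 4 by mean level, had 28900 ± 8882 CPM and was highest in Control 2 (45101), and Snord49a had 15765 ± 1842 CPM. Snord2 (14150 ± 3184), Snord4a (9991 ± 1771), Snord12 (7419 ± 2712), Snord38a (3293 ± 534) and Snord32a (3134 ± 1095) followed among the first 10 of 73 rows. Rows were put in this class by their Snord names. Rnu73a (4590 ± 710 CPM) and Rnu73b, together 0.474% of misc RNA counts, were kept apart and are in neither this ranking nor the C/D box share.

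H/ACA box snoRNAs, which are longer, were rare in these libraries. Their 26 rows held 0.0204% ± 0.00372 of counts, 485 to 975 reads per library, and C/D box counts were 1195 to 1670 times theirs. Snora16a led with 87.8 ± 18.6 CPM, followed by Snora68 (35.1 ± 6.49), Snora73a (11.8 ± 4.25), Snora73b (11.5 ± 3.91) and Snora28 (9.47 ± 3.01). Snora73a and Snora73b are near-identical copies, and their counts were equal in Control 1, 4 and 5. Libraries were cut from a gel, per the labels' protocols, so the levels of longer RNAs describe what the size cut let through.

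Of the other misc RNAs, Gas5, the host transcript of many C/D box snoRNAs, was first with 55491, 78659, 40745, 32636, 28582 and 40655 CPM (mean 46128 ± 18411, or 35654 over Control 3 to 6), highest in Control 2. Reads of the Gas5 transcript and of the snoRNAs it hosts cannot be told apart in this row, which is not in the C/D box share. Giyd2 (8259 ± 2228 CPM), the Y RNA Rny1 (7779 ± 1165), the imprinted antisense RNA Kcnq1ot1 (6255 ± 1662) and LOC100503529 (5579 ± 1622) followed. These long names may not be independent signals. Of 89 other rows with a mean of 1000 counts or more, Kcnq1ot1 included, 55 kept a ratio to Kcnq1ot1 with a coefficient of variation under 0.1 over the libraries, and for Giyd2 it was 0.018. Rny3, the other Y RNA, had 551 ± 219 CPM.

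**Figure D4:**
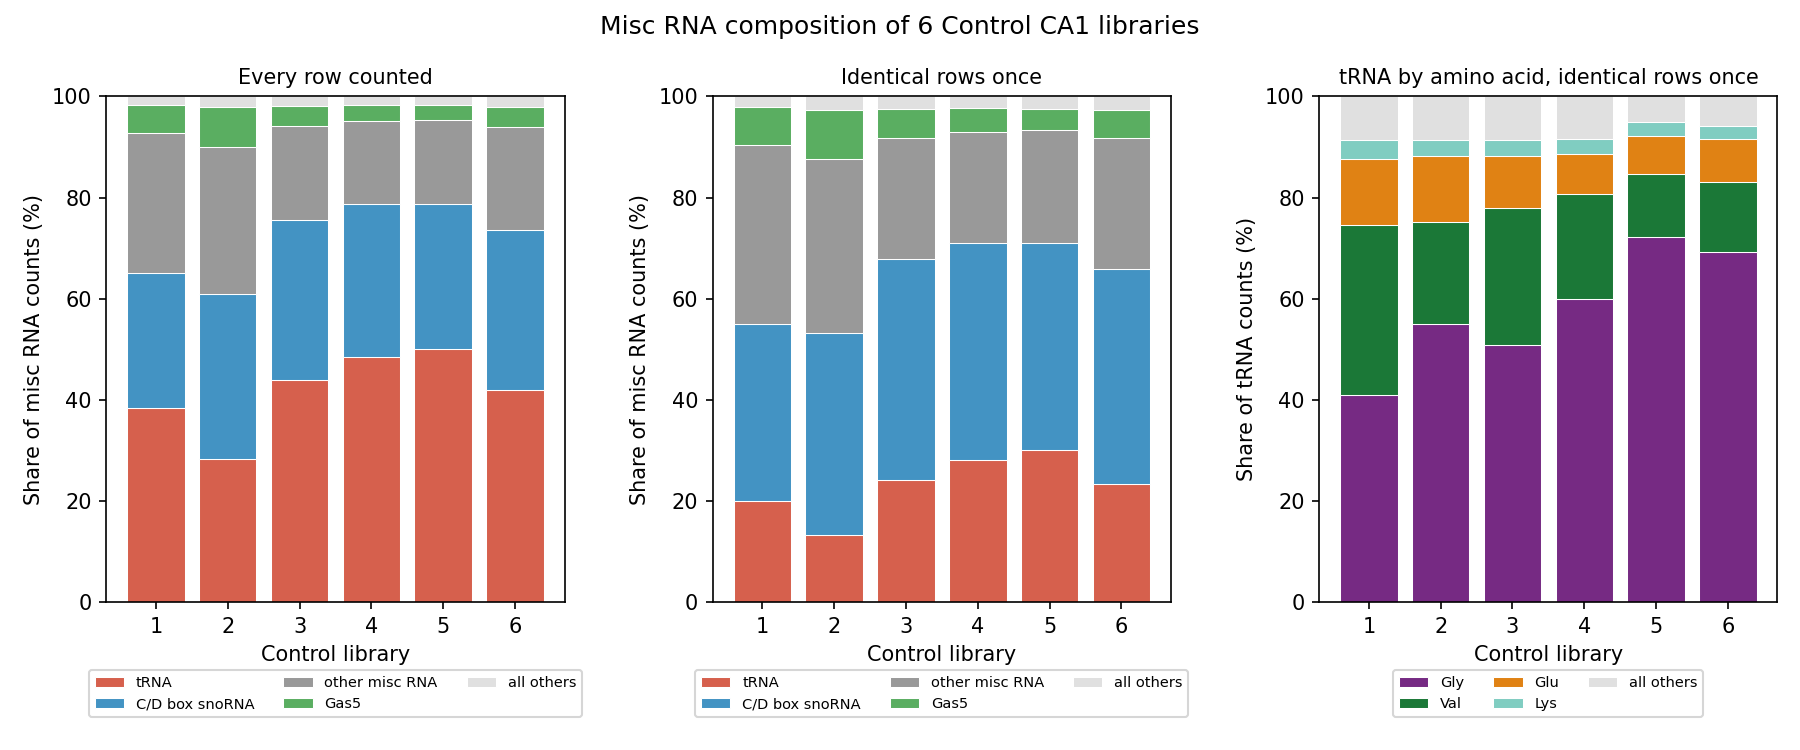
Composition of the misc RNA counts in each Control library, with every row counted (left) and with sets of identical rows kept once (middle), and the amino acids of tRNA counts with identical rows once (right), all in percent. tRNAs are largest at the left and C/D box snoRNAs in the middle, and the glycine share runs from 40.9% to 72.2%.

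Libraries agreed closely over the whole range of miRNA levels. Across the 495 miRNAs, Pearson's r of log2 CPM between pairs of libraries ran from 0.975 to 0.995 and Spearman's rho from 0.972 to 0.993 over 15 pairs, given as a description, since the miRNAs share a library. The coefficient of variation (SD over mean of the 6 CPM values) had a median of 0.249 for miRNAs, of which counting error alone would give 0.0585. The quartiles were 0.175 and 0.347. For the 1078 misc RNA rows with a mean of 10 counts or more, identical rows included, the median was 0.306. Counting error alone would give 0.105 there. The common biological coefficient of variation fitted by edgeR was 0.276 for miRNAs and 0.327 for misc RNAs, the latter with identical rows once.

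Much of this spread lay along 1 axis. The first component of the log2 miRNA levels held 64.5% of the variance, with Control 1 and Control 2 at 8.6 and 9.38 and the others between -6.88 and -0.72. In the misc RNA table the first component, with 37.9% of the variance, set the same libraries apart, at 8.25 and 14.7 against -8.31 to -3.95. Over Control 3 to 6 alone the median coefficients of variation were 0.159 and 0.188. The labels give no date or batch for any library.

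miRNAs that were higher in Control 1 and Control 2 had mature sequences richer in G and C. Of 153 miRNAs with a mean of 100 CPM or more and a sequence, 2 of 32 with under 40% G and C were higher in those libraries, 18 of 60 at 40 to 50%, 26 of 44 at 50 to 60% and 13 of 17 at 60% or over, the last a thin group. The median log2 differences were -0.83, -0.25, 0.25 and 0.28. Across these miRNAs Spearman's rho was 0.60 and Pearson's r 0.55, given as a description of the same 6 libraries. The base content averaged over reads was 48.5% and 49.1% G and C in Control 1 and Control 2 and 46.0% to 47.0% in the others. Control 2 also had the lowest totals, and both had the highest miR-486, as given above, and the part of these measures in the axis was not tested.

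**Figure D5:**
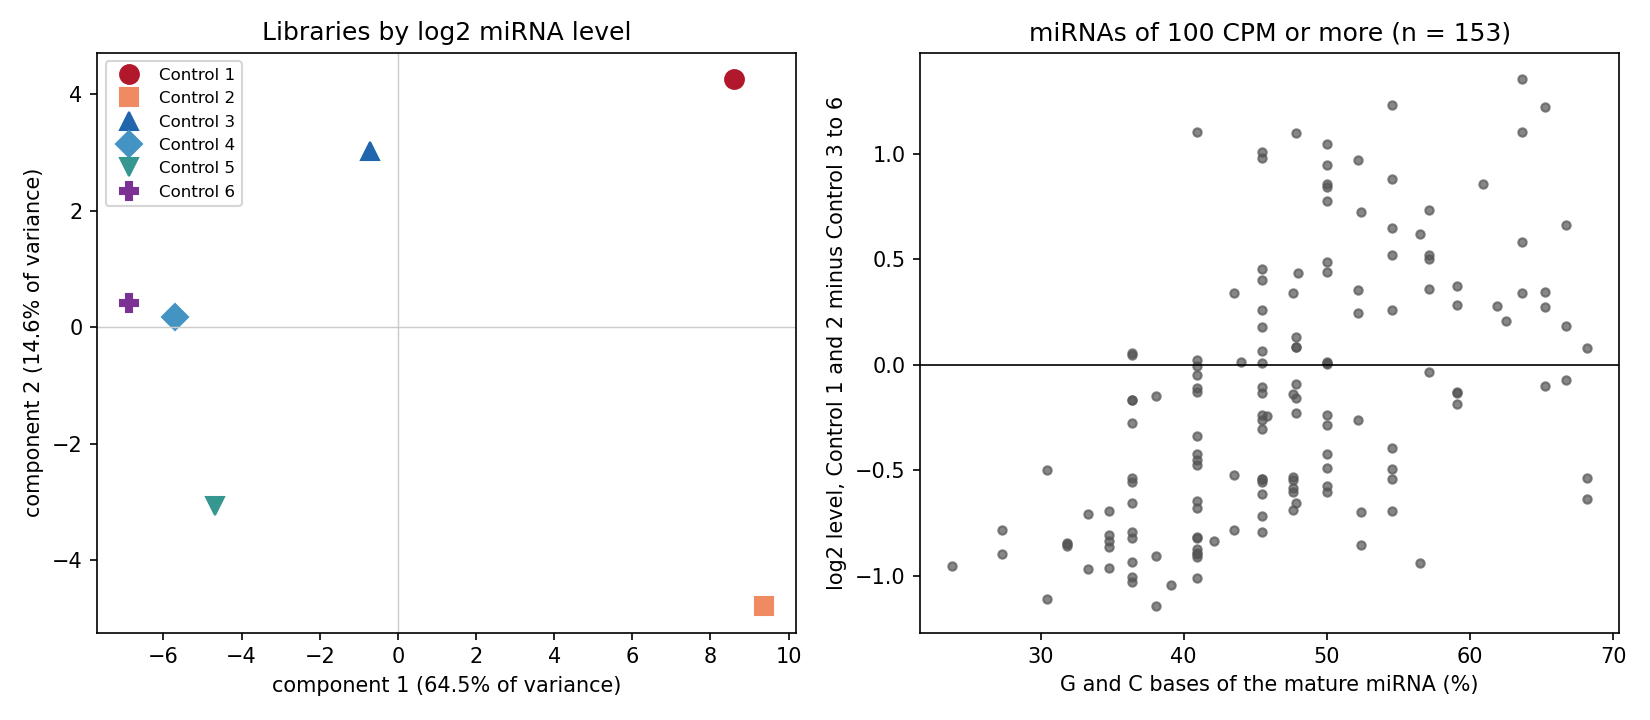
Left, the 6 Control libraries on the first 2 components of log2 miRNA level, where Control 1 and Control 2 lie at the right. Right, the log2 difference in mean level between Control 1 and 2 and Control 3 to 6 for each of 153 miRNAs against the G and C content of its mature sequence, where miRNAs under 40% lie mostly below 0.

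The miRNAs with the widest relative spread among those of 100 CPM or more were miR-501-3p, miR-99b, miR-409-5p, miR-34c and miR-1249, with coefficients of variation of 0.606 to 0.803. miR-501-3p was at 507 CPM in Control 2 and at 76.5 to 160 CPM elsewhere, and miR-409-5p at 460 CPM against 84.3 to 167 CPM. Their means of 194 and 193 CPM became 125 and 133 CPM over Control 3 to 6, and that of miR-1249 went from 572 to 361 CPM. miR-34c, of the p53-responsive miR-34 family and abundant in ciliated cells, went the other way, from 202 and 263 CPM in Control 2 and Control 1 to 1512 CPM in Control 6. The steadiest were miR-495, miR-221, miR-379*, let-7e and miR-30b, with coefficients of 0.033 to 0.072. miR-495 had 214, 232, 214, 214, 214 and 215 CPM, and miR-221, a growth-linked miRNA, 2083 ± 86.2 CPM (SD, n = 6).

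In the misc RNA table the widest were Snord53, LOC100504142, a row of tRNA-Met, Rn7sk and a row of tRNA-Val. Snord53 had 135, 9.56, 4.58, 230, 87 and 147 CPM in Control 1 to 6, low in Control 2 and Control 3 and higher in the others, including Control 1. The 7SK RNA, which holds the elongation factor P-TEFb inactive, was highest in Control 2 at 262 CPM and at 63.2 to 133 CPM elsewhere. The steadiest were Snord66 (1346 ± 104 CPM), Rmrp (570 ± 48.6), the RNA of RNase MRP, a row of tRNA-Gly (361 ± 32.1), Snord85 (1474 ± 143) and Rian (1465 ± 142), a long RNA of the Dlk1-Dio3 region.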

How the data were processed

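The authors deposited tables of raw read counts with whole numbers and no normalization, per the file headers, of which the miRNA and misc RNA tables were used. RNA isolation used TRI Reagent and a DNase step, and Illumina small RNA kits with a gel cut gave the libraries, per the labels' protocols. Per the submitters' processing notes, CASAVA was used. The aligner, the annotation release, the genome build and the treatment of reads matching several genes are not given in the sources used here, so no coordinates are printed. Intervals, SDs and SEs cover these libraries only, and PCR reads carry no molecular identifiers.

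Only the 6 Control columns were analysed, and the 6 columns of Kat2a cKO were left out. A single miRNA row without a name (0.00019% of reads) was dropped. Counts were divided by the table's total to give CPM. Arms were compared by edgeR 4.0.16 in R 4.3.3 (quasi-likelihood test, two-sided, library as a block, miRNA table totals as library sizes, hairpins with a mean of 10 or more counts over both arms, Benjamini-Hochberg adjustment, threshold 0.05). The test was checked on simulated data. Per-library ratios used a pseudocount of 0.5. Both arms of a name made by several genes are pooled. Names without an arm suffix were assigned to 5p or 3p by a hand-made list (242 names). Sequences came from RefSeq tables of GRCm38.p6 and from GENCODE M21. The components used log2 of CPM + 1.

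The members, lists and tests were chosen with earlier results of these data known. Named RNAs were the 20 most abundant miRNAs, the 10 largest seed families with their leading members, hairpins at both ends and the middle of the arm ratios, the 8 largest clusters, the 10 leading tRNA labels and C/D box snoRNAs, 5 H/ACA box snoRNAs, 5 other misc RNAs, the 5 most and 5 least variable features of each table at 100 CPM or more, and 2 members of each cell type list. A C/D box snoRNA that the rule takes is not reported here. Others were chosen after their values were seen. Alternatives were DESeq2 1.42.0, an exact sign-flip permutation test, other filters and scalings, each library left out, identical rows kept once and, added after seeing the data, Control 3 to 6 alone, miR-486 and miR-3107 counted once and only the larger sets of identical rows kept once.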

Additional observations from a re-analysis of the deposited data

Results flagged for a closer look

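In 118 groups of 6 library values, 11 had 1 library far from the rest by Dixon's ratio of the gap to the nearest library over the whole range (above the 95% critical value). If no group had been chosen by its spread, chance would flag about 1 in 20 groups, or 5.9. In 10 of them the library was Control 2, which had the lowest totals. Several of the 11 overlap, since a family or cluster contains its leading miRNA. Some, miR-495 among them, were in the groups because of their wide or narrow spread over these same libraries. The rate of 1 in 20 does not hold for groups chosen in that way, so the 11 cannot be weighed against 5.9.

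Control 2 was lowest for miR-181a (ratio 0.6576, 92566 against 116281 CPM in the next library) and for its seed family (0.6609). It was highest for miR-99b (0.7137), the Mir99b cluster (0.6514), miR-501-3p (0.8059), miR-409-5p (0.7785) and miR-495 (0.9555). For miR-495 the difference was small, 232 against 215 CPM, and the ratio is large because the other 5 libraries were nearly equal. In the misc RNA table Control 2 was highest for Snord12 (0.833, 12899 against 6975 CPM), for the H/ACA box snoRNA share (0.6322, 0.0273% against 0.0209%) and for the tRNA-Asp share with identical rows once (0.664, 1.54% against 0.98%). Control 1 was lowest in the share of miRNA counts among both tables (0.6322, 54.2% against 61.4%).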

How the results depend on the processing

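Arm calls changed little. The plain arm was higher in 89 hairpins, and in 90 by DESeq2, 86 by the exact sign-flip permutation test (smallest possible p 0.03125) and 88 to 90 with each library left out. The starred arm was higher in 12, 12, 11 and 12 to 13. With identical rows once, the tRNA share moved from 41.8% to 23.1%, C/D box snoRNAs from 30.3% to 40.9%, H/ACA box snoRNAs from 0.0204% to 0.0279% and the miRNA share of both tables from 61.1% to 68.3%, and with only the sets of over 200 reads once the tRNA and C/D box shares were 23.1% and 40.8%. The median coefficient of variation of miRNAs was 0.159 over Control 3 to 6 alone, and 0.224 to 0.269 with each library left out. That of misc RNAs was 0.341 with the total of both tables, 0.628 with no filter, 0.188 over Control 3 to 6 alone, and 0.282 to 0.324 with each library left out. The causes were not tested, except that no filter adds rows of few reads. With each library left out the share of the 10 most abundant miRNAs was 58.6% to 59.6%, the leading seed family 13.8% to 15.01%, Dlk1-Dio3 22.6% to 24.0%, starred arms 1.82% to 1.92%, tRNAs 40.2% to 44.5%, C/D box snoRNAs 29.8% to 31.0%, H/ACA box snoRNAs 0.0190% to 0.0210% and the miRNA share 60.2% to 62.4%. Of the 138 hairpins called, 7 lost their call by the exact permutation test: the starred pairs miR-329, miR-210 and miR-873 (adjusted p = 0.068 each) and miR-872 (0.13), and of the 5p and 3p pairs miR-339 and miR-544 (0.068 each) and miR-666 (0.10). Between 1 and 5 lost it with a library left out, among them miR-872 without Control 3, 4, 5 or 6 (0.051 to 0.095) and miR-431 without Control 4 (0.079). The fitted direction of the 138 was the same by DESeq2, the permutation test, a minimum of 50 counts, each library left out and Control 3 to 6 alone, and the ratio of miR-1298, not called, lay on both sides of 0 (log2 -0.14 to 0.03 with each library left out). Over Control 3 to 6 alone the shares and arm counts stayed within the spread between libraries or 1.5 times the count. No paired analysis was possible because no groups were compared, so the replicate numbers that the labels share between groups pair nothing here.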
